A study of Mus musculus with 5 samples.

Results

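Mouse genes whose symbol is Zfp followed by a number encode zinc finger proteins, and 254 of them are described here across 5 arrays of mouse embryonic fibroblasts (MEFs). The array annotation gave 336 such genes with a probe set of their own, and a gene was kept when at least 1 of its 5 log2 signals reached the median of its array over the probe sets that name a single gene. That filter kept 12317 of 22180 genes on the whole array. The primary MEFs were STING-/-, lacking the endogenous adaptor of cytosolic DNA sensing, and expressed STING with the substitution R284S, a gain-of-function form. RNA was taken 9 hours after Compound C, doxorubicin, GSK 690693, tofacitinib or vehicle, from 1 sample per treatment. The sources used here give neither the doses nor whether the reconstituted cells were 1 clone or a pool. All 5 groups share the variant, and none carries wild-type STING or lacks STING.

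Zinc finger proteins of the C2H2 class fold short loops of protein around a zinc ion and read DNA, or sometimes RNA, with arrays of such fingers. In mammals the largest subfamily joins the fingers to a KRAB domain, which binds the corepressor TRIM28 (also called KAP1) and through it the histone methyltransferase SETDB1, silencing transposable elements and some imprinted genes. Other members act as promoter-binding activators, as partners of chromatin complexes or as RNA-binding proteins, and Zfp36 has fingers of another class, CCCH. Many of the genes lie in clusters of paralogues with repeated finger sequences, so probe sets of close relatives may share signal, which was not tested. Compound C (dorsomorphin) inhibits AMPK and BMP type I receptors, GSK 690693 inhibits AKT kinases, tofacitinib inhibits JAK kinases, and the anthracycline doxorubicin traps topoisomerase II on DNA.

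Because each treatment has a single array, no difference below has an error, a test or a replicate check. The members were chosen with their values on these arrays in view, so their doxorubicin difference is a description. As a yardstick, the closest arrays, GSK 690693 and tofacitinib, differed with a standard deviation of 0.258 over all tested genes and 0.218 over the 254 members. All 10 listed fibroblast markers passed the filter, with mean log2 signals between 9.35 and 9.67 on the 5 arrays. Of the markers on the array for other cell types, 3 of 5 epithelial, 1 of 5 immune, 2 of 4 endothelial and 2 of 4 pluripotent ones passed, with mean signals between 4.28 and 5.17, and the summed log2 signals of the immune list lay between 21.39 and 22.0. Below the filter were Epcam and Krt14, the immune markers Adgre1, Cd3e, Itgam and Ptprc, the endothelial Pecam1 and Tek, and the pluripotency genes Dppa5a and Nanog. Some markers stood at least 1.5-fold from vehicle with doxorubicin. The fibroblast genes Lum (1.80) and Fap (1.59) were higher and Col1a1 (−0.64) lower, and Sox2 read 5.63 with doxorubicin, 4.6 with each of the other 3 compounds and 3.92 with vehicle. The part of such markers in the results was not tested, and in bulk RNA fewer cells of a type and less RNA per cell cannot be told apart.

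With doxorubicin the numbered zinc finger transcripts read lower than with vehicle almost throughout. Of the 254 members, 229 (90.2%) lay below vehicle, 22 above and 3 level with it, where 45.1% of all tested genes lay below. The median log2 difference was −0.58, against 0.05 over all 12317 tested genes. At least 1.5-fold lower were 126 members, or 49.6%, where 14.2% of all tested genes passed the same fold. At least 2-fold lower were 68 members, or 26.8%, against a background of 6.45%. In the other direction 1 member was at least 1.5-fold higher, or 0.394%, against 11.5% of all tested genes. The quartiles of the members lay at −1.05 and −0.22, and those of the remaining tested genes at −0.28 and 0.37.

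**Figure D1:**
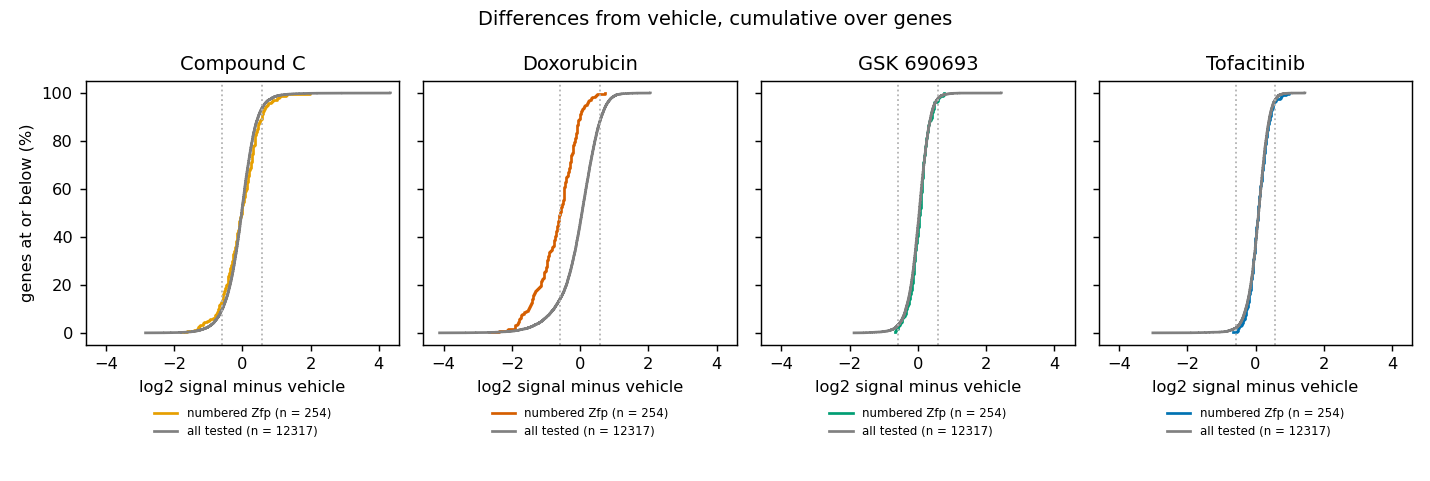
Cumulative share of genes (vertical axis, %) at or below each log2 difference from vehicle (horizontal axis), 1 panel per compound. Coloured steps are the 254 numbered zinc finger genes, grey steps all 12317 tested genes, and dotted lines mark 1.5-fold. With doxorubicin the coloured curve lies to the left of the grey one, with medians of −0.58 and 0.05, while with the other compounds both curves run close together.

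The low place of doxorubicin was also seen among the 5 arrays without taking vehicle as the baseline. The doxorubicin array alone held the lowest signal for 185 members, or 72.8%, where it did so for 25.3% of all tested genes. For 87 members, or 34.3%, it was at least 1.5-fold below each of the other 4 arrays, against 8.88% of all tested genes. It alone was highest for 4 members, or 1.57%, while 35.7% of all tested genes were highest there. The median log2 signal of the members was 5.77 with doxorubicin, 6.38 with Compound C, 6.47 with GSK 690693, 6.55 with tofacitinib and 6.43 with vehicle. Over all tested genes those medians were 7.16, 7.16, 7.29, 7.39 and 7.22 in the same order of arrays.

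**Figure D2:**
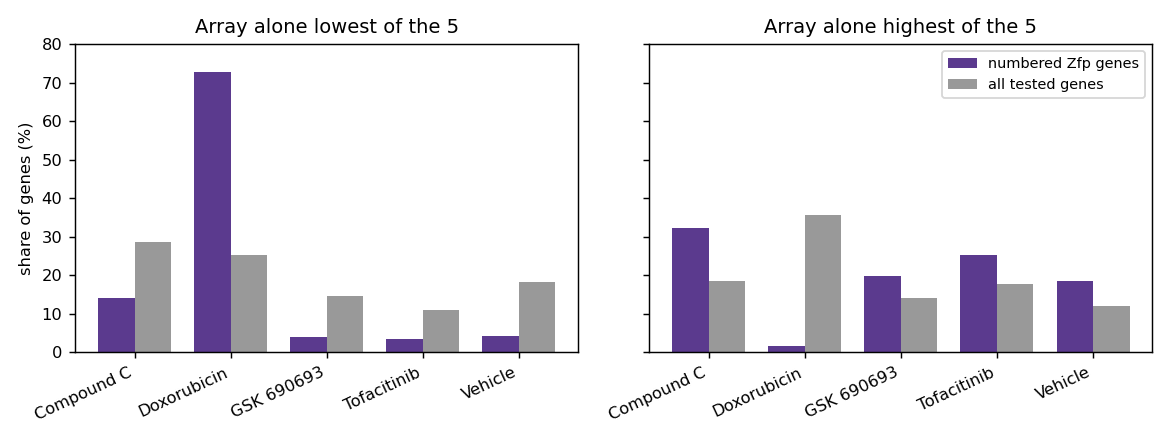
Share of genes (vertical axis, %) for which each array alone held the lowest (left) or the highest (right) of the 5 signals. Purple bars are the 254 numbered zinc finger genes and grey bars all 12317 tested genes. The doxorubicin array was lowest for 72.8% of the members and 25.3% of all tested genes, and highest for 1.57% and 35.7%.

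The lowest member was Zfp281, a factor that binds GC-rich promoters and restrains the pluripotency programme of embryonic stem cells. Its log2 signal was 5.56 with doxorubicin, 7.95 with Compound C, 8.33 with GSK 690693, 7.86 with tofacitinib and 8.23 with vehicle. Doxorubicin was thus 6.36-fold below vehicle (log2 −2.67) and lay 2.30 below the next lowest array, while the other 4 arrays spanned less than 0.5. Zfp84 followed at 5.88 with doxorubicin, 8.21 with Compound C, 8.35 with GSK 690693, 8.52 with tofacitinib and 8.27 with vehicle, a difference of −2.39 from vehicle. The opposite end was Zfp106, an RNA-binding protein needed to maintain motor neurons in mice. It read 9.69 with doxorubicin, 9.26 with Compound C, 9.27 with GSK 690693, 9.41 with tofacitinib and 8.95 with vehicle, so doxorubicin was highest and vehicle lowest. Its difference of 0.74 with doxorubicin was the one past 1.5-fold upward, and its second, dimmer probe set read 0.52.

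The RefSeq promoters of these 3 genes, from the lowest 2 members and the highest, are shown from 250 bases before to 50 bases after the transcription start, 5′ to 3′ on the gene's strand, in the build GRCm38.p6. Capitals mark 4 motifs on either strand, namely the CCAAT box, the GC box spelled GGGCGG, the TATA motif spelled TATAAA and the ETS motif spelled CCGGAAG. The run CCAATTGG is 2 overlapping matches of the CCAAT box on opposite strands. The window of Zfp281 is chr1:136624651-136624950 (plus strand), that of Zfp84 chr7:29768302-29768601 (plus strand) and that of Zfp106 chr2:120563810-120564109 (minus strand).
Zfp281: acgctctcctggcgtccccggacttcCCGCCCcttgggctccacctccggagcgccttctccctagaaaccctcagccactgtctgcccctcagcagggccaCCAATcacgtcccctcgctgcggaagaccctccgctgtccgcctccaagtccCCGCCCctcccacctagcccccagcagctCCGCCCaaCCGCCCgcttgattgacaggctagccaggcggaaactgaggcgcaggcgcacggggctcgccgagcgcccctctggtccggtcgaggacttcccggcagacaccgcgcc
Zfp84: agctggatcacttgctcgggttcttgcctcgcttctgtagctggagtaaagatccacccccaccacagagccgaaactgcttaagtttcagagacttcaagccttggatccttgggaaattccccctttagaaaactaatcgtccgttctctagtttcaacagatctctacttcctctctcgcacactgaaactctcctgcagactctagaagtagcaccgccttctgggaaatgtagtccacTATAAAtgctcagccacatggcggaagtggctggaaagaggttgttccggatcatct
Zfp106: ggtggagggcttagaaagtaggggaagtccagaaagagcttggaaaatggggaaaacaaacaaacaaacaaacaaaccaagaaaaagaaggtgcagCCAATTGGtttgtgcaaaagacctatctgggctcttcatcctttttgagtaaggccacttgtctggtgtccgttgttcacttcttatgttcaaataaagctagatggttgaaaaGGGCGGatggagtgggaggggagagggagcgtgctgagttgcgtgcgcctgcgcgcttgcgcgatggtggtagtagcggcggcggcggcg
Zfp281 held 4 GC boxes (GGGCGG, here all on the opposite strand as CCGCCC) and 1 CCAAT, Zfp84 held 1 TATAAA, and Zfp106 held 2 CCAAT matches and 1 GC box.

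RefSeq promoters were found for 210 of the 254 members, 259 windows in all, and were set beside all 32851 windows of the table. Those windows cover 27025 genes, so they include genes outside the 12317 tested, while the members all passed the filter. Shares over tested genes alone were not computed, so members cannot be told apart from tested genes at large here. GGGCGG was found on either strand in 48.3% of the members' windows and in 35.7% of all windows. CCAAT was found in 45.9% and 37.4%, and TATAAA in 7.34% and 13.6%. CACGTG (6.95% and 7.15%) and TGACGTCA (1.54% and 1.79%), both palindromes, differed little in share. CCGGAAG, a sequence bound by ETS factors and added to the search after the other motifs had been counted, was found in 20.5% of the members' windows and 8.86% of all. Between the 130 windows of the 108 matched members at least 1.5-fold lower with doxorubicin and the 129 windows of the other 102, the shares of windows were 48.5% and 48.1% for GGGCGG, 44.6% and 47.3% for CCAAT, and 21.5% and 19.4% for CCGGAAG. A match is a run of letters and not a bound site.

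**Figure D3:**
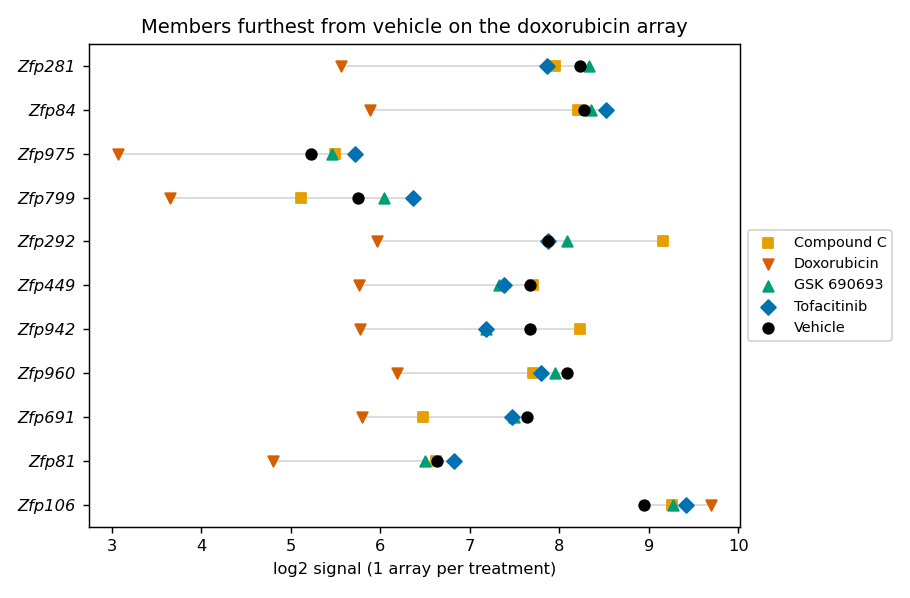
Log2 signal (horizontal axis) on each of the 5 arrays for the 10 members lowest against vehicle with doxorubicin and for Zfp106, the one member at least 1.5-fold higher. Each marker is 1 array, and the grey line spans the 5 values. The doxorubicin marker is leftmost in the upper 10 rows and rightmost in the row of Zfp106.

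The rest of the 10 lowest were Zfp975, Zfp799, Zfp292, Zfp449, Zfp942, Zfp960, Zfp691 and Zfp81, between −2.15 and −1.83 from vehicle, and Zfp944 was level with the last of them at −1.83. For all of these genes the doxorubicin array held the lowest signal. Zfp975 and Zfp799 were dim. Zfp975 read 3.07 with doxorubicin, 5.49 with Compound C, 5.46 with GSK 690693, 5.72 with tofacitinib and 5.22 with vehicle, and Zfp799 has a second probe set, which read 4.23 with doxorubicin and 4.39 with vehicle. Zfp691 was the member of the 10 in which Compound C came nearest to doxorubicin, at 5.80 with doxorubicin, 6.48 with Compound C, 7.49 with GSK 690693, 7.47 with tofacitinib and 7.64 with vehicle. Among the 5 brightest members, Zfp207, which helps load spindle checkpoint proteins onto kinetochores, read 9.42 with doxorubicin and 10.04 with vehicle, and Zfp266 8.78 and 9.84. Zfp706, at 8.99 and 9.05, and Zfp131, at 8.30 and 8.79, differed by less than 1.5-fold.

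By known role, the members that silence repeats and imprinted genes read lower with doxorubicin in each tested case. Of 7 listed, 4 passed the filter, and all 4 were at least 1.5-fold lower, where 49.6% of all members and 14.2% of all tested genes were. A list of 4 is too short to set this role apart from the other members. Zfp568, a KRAB protein that represses a placental transcript of Igf2, read 5.56 with doxorubicin, 7.22 with Compound C, 7.30 with GSK 690693, 7.28 with tofacitinib and 7.14 with vehicle. The other 4 arrays lay within 0.2 of each other and doxorubicin stood apart from them. Zfp809, which recognises the primer-binding site of murine leukaemia proviruses, differed by −0.99, Zfp445 by −0.75 and Zfp57 by −0.60, the last 2 being KRAB proteins that protect imprints. Zfp57 was lower with Compound C, at 6.48, than with doxorubicin, at 7.01, GSK 690693, at 7.64, tofacitinib, at 7.45, and vehicle, at 7.61. Zfp708, Zfp819 and Zfp932 did not reach the filter.

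Among the 8 RNA-binding and translation-linked members, doxorubicin was at least 1.5-fold below vehicle in 4 (50%, beside 49.6% of all members and 14.2% of all tested genes) and above it in 1, Zfp106. Zfp36, also called tristetraprolin, binds AU-rich elements and speeds the decay of cytokine mRNAs. It read 7.19 with doxorubicin, 8.49 with Compound C, 8.09 with GSK 690693, 8.48 with tofacitinib and 8.66 with vehicle, and the doxorubicin value was 2.77-fold below vehicle. Zfp638, a nuclear protein that works with the HUSH complex to silence unintegrated DNA, read 7.20 with doxorubicin, 8.67 with Compound C, 8.96 with GSK 690693, 8.81 with tofacitinib and 8.85 with vehicle. Both genes had their lowest value with doxorubicin by more than 0.8. Zfp622 differed by −0.72 with doxorubicin and by 0.56, 0.46 and 0.45 with Compound C, GSK 690693 and tofacitinib. Zfp598, the ubiquitin ligase that marks collided ribosomes, read 7.99 with doxorubicin and 7.92 with vehicle, and Zfp346, which binds double-stranded RNA, and Zfp326 lay within 1.5-fold of vehicle.

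Of 10 tested partners of chromatin complexes, 4 passed 1.5-fold downward on the doxorubicin array and 0 upward. Over this and the next 4 lists the share lower was between 40% and 50%, close to or under the 49.6% of all members, where the share of all tested genes was 14.2%, so the counts set none of these roles apart. The 4 partners were Zfp292 (−1.91), Zfp638, Zfp217 (−1.14), which acts with CoREST, and Zfp592 (−1.13), a partner of ZMYND8. Zfp687, another ZMYND8 partner, differed by −0.21. Of 7 promoter-binding regulators, 3 were at least 1.5-fold lower, namely Zfp281, Zfp384 (−0.68) and Zfp410 (−0.61), which activates the NuRD gene Chd4, and the median of the list was −0.51. Of 6 mesenchymal and adipocyte lineage factors, 3 were lower and 0 higher. Zfp503 differed by −1.42, Zfp467, which favours fat over bone in marrow stroma, by −1.39, and Zfp703 by −1.14, while Zfp423, which marks preadipocytes and cooperates with SMAD proteins, stood at 0.19 and its paralogue Zfp521 at −0.14. Of 5 signalling-linked members, 2 were lower, Zfp110 (−0.77) and Zfp746 (−0.65), a repressor of PGC-1alpha also called PARIS. Of 4 tested regulators of embryonic stem cells, 2 were lower, Zfp281 and Zfp207, and Zfp42 (Rex1) stayed below the filter on every array, as it read between 4.03 and 4.43.

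The difference was found at each signal level. With members split into 3 bins by mean signal over the 5 arrays, the median doxorubicin difference was −0.48 in the dim bin, −0.57 in the middle bin and −0.64 in the bright bin. All tested genes in the same ranges of signal had medians of −0.02, 0.01 and 0.11. At least 1.5-fold lower were 38 of 84, 40 of 85 and 48 of 85 members, or 45.2%, 47.1% and 56.5%, against 7.68%, 15.9% and 16% of all tested genes in the same ranges.

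**Figure D4:**
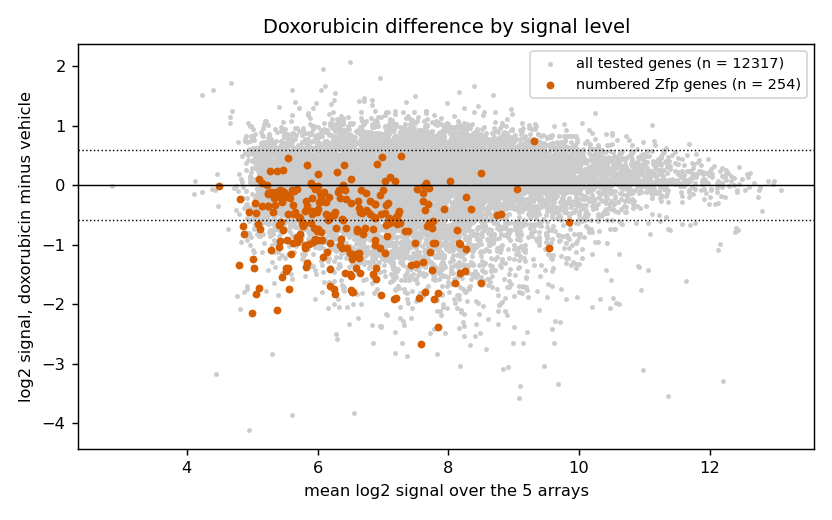
Log2 difference between doxorubicin and vehicle (vertical axis) against the mean log2 signal over the 5 arrays (horizontal axis), 1 point per gene. Orange points are the 254 numbered zinc finger genes and grey points all 12317 tested genes, with dotted lines at 1.5-fold. Most orange points lie below 0 from the dim to the bright end, with Zfp281 lowest at −2.67 and Zfp106 highest at 0.74.

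Neighbours in the genome differed among themselves with doxorubicin. In the order of protein-coding genes in GRCm38.p6, 126 members lie directly beside another gene named Zfp, 127 do not and 1 was not placed. Members beside one had a median doxorubicin difference of −0.64, and those not beside one −0.51. Of the 7 runs of adjacent Zfp genes that hold at least 4 members, 23 of 40 members were at least 1.5-fold lower. That fold was passed by 49.6% of all members and 14.2% of all tested genes. The medians of the runs lay between −1.18 and −0.49, against −0.58 for all members and 0.05 for all tested genes. The runs were not tested against the other members. The longest run held 15 Zfp genes from Zfp84 to Zfp146, of which 12 are members. Of these 12, 8 were at least 1.5-fold lower, with a median of −1.18. Next to Zfp84 (−2.39), Zfp146 (−1.82), Zfp568 (−1.58), Zfp27 (−1.40) and Zfp790 (−1.35), the run also held Zfp14 at −0.07 and Zfp940 at 0.25. In a run of 8 from Zfp760 to Zfp994, 6 were members and 4 were lower, with Zfp942 at −1.90 and Zfp820 at 0.24. A run of 10 from Zfp180 to Zfp93 held 4 members, 2 of them lower, with a median of −0.60, and of the 4 members from Zfp709 to Zfp961 1 was lower, with a median of −0.49. Adjacent genes thus included both large differences and values near 0.

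The members above vehicle with doxorubicin differed from it by small amounts. After Zfp106 came Zfp180 (0.48), Zfp526 (0.47), Zfp959 (0.45) and Zfp704 (0.35), all under 1.5-fold. Zfp180 read 7.20 with doxorubicin, 7.80 with Compound C, 7.20 with GSK 690693, 7.46 with tofacitinib and 6.72 with vehicle, so vehicle was lowest. Besides Zfp106, the doxorubicin array alone was highest for Zfp458, Zfp523 and Zfp575, by margins of at most 0.06 over the next array.

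Set against the other compounds in place of vehicle, doxorubicin gave like counts. At least 1.5-fold lower were 127 members against Compound C, 146 against GSK 690693 and 147 against tofacitinib, where 14.9%, 16.5% and 16.8% of all tested genes passed. The median differences were −0.59, −0.71 and −0.72, against 0.13, 0.05 and 0.03 over all tested genes. At least 1.5-fold higher were 6, 1 and 1 members, against 15.4%, 11.3% and 5.68% of all tested genes. These comparisons share the doxorubicin array, so they are not independent of each other.

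With Compound C single zinc finger genes read far from vehicle in both directions, with a median of −0.02, equal to that of all tested genes. At least 1.5-fold lower were 35 members, or 13.8%, against a background of 9.99%, and 22 were higher, or 8.66%, against 6.06%. The spread of the differences was 0.535 (standard deviation over members), against 0.455 over all tested genes. The Compound C array alone was highest for 82 members, or 32.3%, where this held for 18.4% of all tested genes. The same excess was seen on each array but that of doxorubicin, with 19.7% of the members and 14% of all tested genes for GSK 690693, 25.2% and 17.6% for tofacitinib, and 18.5% and 11.9% for vehicle, so it does not set Compound C apart. Compound C alone was lowest for 36 members, or 14.2%, against 28.7% of all tested genes. The share was also below that of all tested genes for GSK 690693 (3.94% and 14.7%), tofacitinib (3.54% and 10.9%) and vehicle (4.33% and 18.2%). A low share here does not set Compound C apart either. Compound C was at least 1.5-fold above each of the other arrays for 10 members, or 3.94%, against 1.91% of all tested genes. It was at least 1.5-fold below each of them for 6 members, or 2.36%, against 3.22% of all tested genes.

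The lowest with Compound C was Zfp759, at 4.24 with Compound C, 4.29 with doxorubicin, 5.47 with GSK 690693, 5.47 with tofacitinib and 6.02 with vehicle. Here Compound C and doxorubicin were level and vehicle was highest. Zfp982 (−1.63), Zfp458 (−1.42), Zfp324 (−1.34), Zfp397 (−1.30), Zfp469 (−1.30), Zfp697 (−1.28), Zfp719 (−1.23), Zfp691 (−1.16) and Zfp358 (−1.15) followed. The human orthologue of Zfp469 is mutated in brittle cornea syndrome, a disorder of collagen-rich tissue. Zfp458 was low on the Compound C array alone, at 4.13 with Compound C, 5.79 with doxorubicin, 5.75 with GSK 690693, 5.71 with tofacitinib and 5.55 with vehicle, and the other 4 arrays lay close together. By contrast Zfp324, Zfp397, Zfp469 and Zfp719 also read lower with doxorubicin, by −1.15, −1.49, −1.53 and −1.48 from the same vehicle array.

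The highest with Compound C was Zfp972, which passed the filter through that array, at 5.97 with Compound C, 3.99 with doxorubicin, 4.30 with GSK 690693, 4.21 with tofacitinib and 4.0 with vehicle. Zfp654 (1.32), Zfp292 (1.29), Zfp871 (1.11) and Zfp180 (1.08) came next. Zfp292 was at opposite ends with the 2 compounds, at 9.16 with Compound C, 5.96 with doxorubicin, 8.08 with GSK 690693, 7.87 with tofacitinib and 7.87 with vehicle. Zfp871 had the same order, at 9.27 with Compound C, 7.09 with doxorubicin, 8.42 with GSK 690693, 8.42 with tofacitinib and 8.16 with vehicle. In both genes GSK 690693 and tofacitinib stayed near vehicle. Zfp592, Zfp760 and Zfp948 were also more than 1.5-fold above every other array with Compound C while lowest with doxorubicin, and Zfp410 differed by 0.86 with Compound C.

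**Figure D5:**
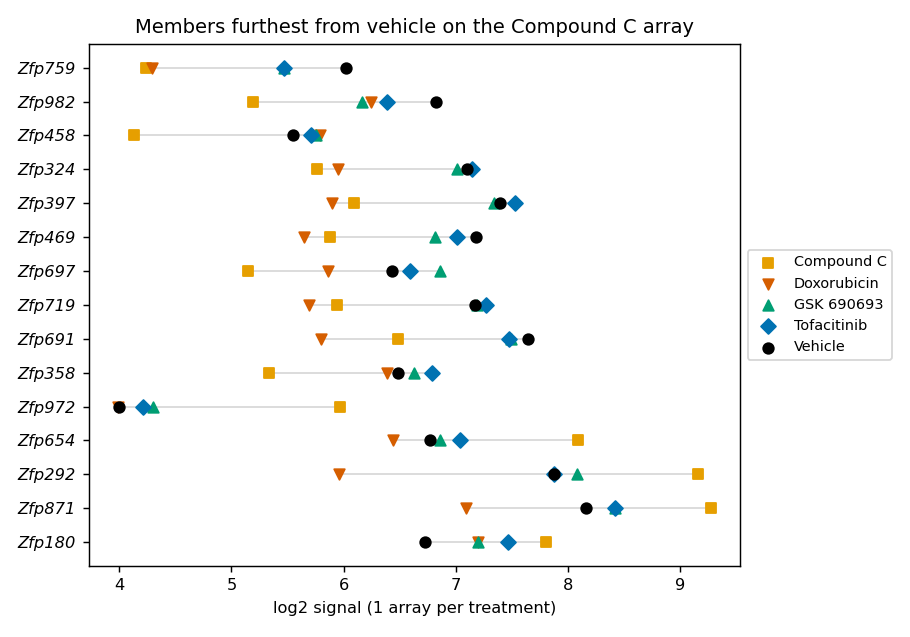
Log2 signal (horizontal axis) on each of the 5 arrays for the 10 members lowest and the 5 highest against vehicle with Compound C. Each marker is 1 array, and the grey line spans the 5 values. Doxorubicin stands beside Compound C in Zfp759, Zfp324, Zfp397, Zfp469 and Zfp719, apart from it in Zfp458 and Zfp358, and at the other end in Zfp292 and Zfp871.

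With GSK 690693 and tofacitinib 243 and 245 of the 254 numbered zinc finger genes lay within 1.5-fold of vehicle. These are 95.7% and 96.5%, close to the 94.4% and 95.3% of all tested genes. With GSK 690693, 4 members were lower, or 1.57%, against a background of 3.21%, and 7 higher, or 2.76%, against 2.4%. Those lower were Zfp467 (−0.68), Zfp982 (−0.66), Zfp414 (−0.65) and Zfp946 (−0.63), and the highest were Zfp560 (0.77), Zfp740 (0.76), Zfp704 (0.74), Zfp184 (0.66) and Zfp772 (0.62). A dimmer probe set of Zfp184 read 0 with GSK 690693. With tofacitinib, 1 member was lower, or 0.394%, against a background of 2%, and 8 higher, or 3.15%, against 2.66%. The lower was Zfp526 (−0.66), whose second probe set read −0.15, and the highest were Zfp772 (0.97), Zfp943 (0.90), Zfp2 (0.78), Zfp560 (0.75) and Zfp180 (0.74). A dimmer probe set of Zfp943 read 0.45 with tofacitinib. Zfp772 read 5.12 with GSK 690693, 5.47 with tofacitinib and 4.50 with vehicle, but also 5.41 with Compound C, and 3.81 with doxorubicin. Median differences were 0.06 with GSK 690693 and 0.07 with tofacitinib, against 0.04 and 0.09 over all tested genes.

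The corepressor machinery that KRAB proteins recruit went both ways with doxorubicin, with more genes past 1.5-fold lower than higher. Of 35 listed symbols, 31 were on the array and 30 were tested, and doxorubicin was at least 1.5-fold below vehicle in 10 and above it in 3, for a median of −0.16. These are 33.3% and 10%, against 14.2% and 11.5% of all tested genes. Atf7ip, the partner that stabilises SETDB1, read 8.61 with doxorubicin, 10.96 with Compound C, 10.39 with GSK 690693, 10.40 with tofacitinib and 10.65 with vehicle. Smarcad1 (−1.81), a chromatin remodeller, Resf1 (−1.55), a retroelement silencing factor, and the HUSH-linked genes Morc2a and Tasor (both −1.20) were also lower. Trim28 itself stood at 0.08 with doxorubicin and Setdb1 at −0.63. With Compound C 4 of the 30 were lower and 1 higher, or 13.3% and 3.33%, against 9.99% and 6.06% of all tested genes. Tasor read 5.33 with Compound C, 6.97 with doxorubicin, 8.12 with GSK 690693, 8.21 with tofacitinib and 8.17 with vehicle. With Compound C Smarcad1 (−1.02), Setdb1 (−0.82) and Cbx5 (−0.81), which encodes HP1 alpha, were lower too and Resf1 (0.67) higher. With GSK 690693 and tofacitinib 0 of the 30 passed 1.5-fold, and the largest values were those of Rbbp4, 0.48 and 0.57.

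Other zinc finger families had medians on the same side with doxorubicin. Their counts past 1.5-fold stand against 14.2% of all tested genes lower and 11.5% higher. The 22 tested Zfp genes with a letter after the number had a median of −0.85, with 14 lower (63.6%) and 0 higher. The 15 tested Zscan and Zkscan genes had one of −0.80, with 9 lower (60%) and 0 higher, and the 34 Zbtb genes one of −0.54, with 16 lower (47.1%) and 0 higher. The 61 Rnf genes, whose RING fingers bind zinc but serve ubiquitin transfer, had one of −0.02, with 11 lower (18%) and 4 higher (6.56%), a share lower that is near the background. These differences between families were not tested.

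The filter weighs on the counts, since it needed a single high array. The median was reached by 172 members with doxorubicin, 223 with Compound C, 236 with GSK 690693, 237 with tofacitinib and 224 with vehicle. A group of 43 members reached it on each of the other 4 arrays but not with doxorubicin. These counts rest on the same values and medians as the filter. They were not made for all tested genes, so they are no further evidence of a doxorubicin difference. Just inside the filter stood Zfp109, at 5.38 on the GSK 690693 array against a median of 5.38, Zfp605 and Zfp689. Just outside stood Zfp94, at 5.37 against 5.38, Zfp974 and Zfp111. Of the 82 genes below the filter, doxorubicin was at least 1.5-fold below vehicle in 20 (24.4%) and above it in 3 (3.66%), and their median was −0.25. Of all 9863 genes below the filter, 2.12% were lower and 2.73% higher. Over all 336 genes with no filter the counts were 146 (43.5%) and 4 and the median −0.48, where 8.83% and 7.62% of all 22180 genes passed.

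Different probe sets of a gene did not always read alike. Of the 18 members with more than 1 probe set, 11 had a probe set whose doxorubicin difference lay at least 1.5-fold from that of the brighter one used. The same count was not made for all tested genes, so it does not set the members apart. Some of these probe sets were dim, as that of Zfp248 at 3.17 with doxorubicin and 3.45 with vehicle. Others were not, as 1 of Zfp330 at 7.05 with doxorubicin and 7.02 with vehicle. Zfp799 (−2.10 and −0.16), Zfp937 (−1.20 and 0.15), Zfp248 (−1.39 and −0.28) and Zfp597 (−0.96 and 0.08) were nearer to vehicle on a dimmer probe set, as were probe sets of Zfp39, Zfp90, Zfp319, Zfp330 and Zfp507. Zfp943 read −0.36 and 0.56. Zfp526 turned the other way, at 0.47 on the probe set used and −1.04 on a second of like brightness.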

How the data were processed

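The deposited table gives 1 log2 signal per probe set and array, which the authors made with Affymetrix Expression Console 1.3.1.187, per the submitters' processing notes. Per the labels' protocols, 300 ng of total RNA per sample was labelled with a whole-transcript kit. Summarisation, background correction and normalization are not stated there or in the labels, and the log base was inferred from values between 1.05 and 13.18. A quantile step, if used, would have removed a shift shared by most genes. No detection call was used, so dim differences may be understated.

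Of 41345 probe sets, 23521 name 1 gene, 1814 several and 16010 none. A gene is represented by its probe set with the highest mean. It was tested when any of its 5 values reached its array's median, 5.37 to 5.44. Asking this of the highest value alone gave 12311 genes and the same 254 members. Differences are compound minus vehicle on the log2 scale, counted at 1.5-fold (0.585). Each percentage is a share of the set named beside it, and a background is the share of all tested genes past the same fold. The number of arrays limits the precision.

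Members and lists were chosen with earlier results of these data known. Genes named are the 10 lowest and 5 highest members per compound past 1.5-fold, the 5 brightest, the role lists, those nearest the filter, members whose probe sets disagree, and the 5 largest of the corepressor list. Genes named for their neighbours, for standing above or below all other arrays, or next after Zfp106 were chosen after their values were seen. Members were matched to RefSeq (GRCm38.p6) by Entrez identifier, 254 of 254. Protein features (KRAB box, finger number) were planned and not analysed here. Counting was tested on simulated data. Scripts used python 3.11.15, pandas 2.3.3 and numpy 2.4.6.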

Additional observations from a re-analysis of the deposited data

How the results depend on the processing

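The low place of the numbered zinc finger genes with doxorubicin was found under each alternative run. Of the 98 recomputed counts and medians, 60 stayed within the stated range of their value, 1.5 times for a count and the 95% order-statistic interval for a median. That interval treats genes as independent and does not measure a spread between samples. A 2-fold threshold and a stricter filter leave fewer genes by construction. That filter asks for a mean signal at least 1 above the median of the probe sets that name 1 gene. With the stricter filter the members at least 1.5-fold lower with doxorubicin numbered 69 against vehicle, 69 against Compound C, 75 against GSK 690693 and 76 against tofacitinib, of 123 members left, where 16.4%, 16.8%, 18.7% and 18.5% of all tested genes passed. At 2-fold they numbered 68, 69, 78 and 84 of 254, against 6.45%, 7.82%, 7.96% and 8% of all tested genes. With the stricter filter (123 members) and at 2-fold (254), Compound C gave 18 and 13 lower members and 14 and 7 higher. Among all tested genes 10.9% and 2.52% were lower and 6.57% and 1.3% higher. GSK 690693 gave 2 and 0 lower, against a background of 3.57% and 0.601%, and 3 and 0 higher, against 2.62% and 0.187%. Tofacitinib gave 2 and 0 higher, against a background of 2.49% and 0.0487%, and at 2-fold 0 lower, against 0.414%. With the median of the other 4 arrays in place of vehicle, doxorubicin had a median of −0.68 and 0 higher members. Over all tested genes these were 0.065 and 7.48%. GSK 690693 then had a median of 0.11 and 0 lower members, against −0.005 and 1.93% of all tested genes. Tofacitinib had a median of 0.16 and 20 of 254 members higher, against 0.06 and 3.21% of all tested genes. For GSK 690693 and tofacitinib the other 4 arrays include that of doxorubicin. That array alone was lowest for 72.8% of the members and 25.3% of all tested genes. The single member higher with doxorubicin became 4 of 336 with no filter on dim genes and 0 of 254 at 2-fold. The shares of all genes were 7.62% and 1.33%. With no filter 13 of 336 were higher with tofacitinib, against 1.88% of all genes. Centring each array on its median gave medians of 0.04 for Compound C, 0.12 for GSK 690693 and 0.14 for tofacitinib. Over all tested genes they were 0.04, 0.1 and 0.16. Quantile normalization gave medians of 0.025 for Compound C and −0.01 for tofacitinib, against 0.009 and 0.025 over all tested genes. It gave 7 lower members with GSK 690693, against a background of 3.67%. With tofacitinib it gave 4 lower and 5 higher, against a background of 2.64% and 1.32%. The mean of all probe sets of a gene gave 4 of 246 higher with GSK 690693 and 0 lower with tofacitinib. The background there was 2.32% and 1.99%. The medians of Compound C and tofacitinib thus lie near 0 with a sign that depends on the scaling. The cause of these shifts was not tested. No paired analysis was possible because each treatment has 1 array.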
